A study of Mus musculus with 12 samples.

Results

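The genes described here are 9 neuropeptide precursor genes and 1 neuropeptide receptor gene of the mouse retina: Penk, Npvf, Vip, Tac1, Npy, Sst, Cck, Adcyap1, Crh and the receptor gene Npsr1. They are 10 of the 54146 genes counted in 12 whole-retina RNA-seq libraries and were found by symbol. The list was chosen by the levels of these genes in the same 12 libraries over the 4 groups. All 10 passed the filter on low counts that left 18628 genes for testing. The study asked which transcripts change in the retina after OTX2, a homeodomain transcription factor, is lost from photoreceptors (PRs) alone. The P30 control group held 3 mice at postnatal day 30 (P30) with no induction day in their labels. The P32, P34 and P38 cKO groups held 3 mice each, killed 2, 4 and 8 days after 1 tamoxifen injection at P30, with a tamoxifen-dependent Cre under Crx control (Crx-CreERT2) and both Otx2 alleles floxed. Crx is active in PRs, so the deletion is directed at PRs and not at the RPE, which also expresses Otx2. The labels call the first group control without its Cre genotype, and age, tamoxifen and deletion change together from P30 onwards, so their shares in any difference from P30 cannot be told apart.

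Neuropeptides are cut from larger precursor proteins by proteases that recognise pairs of basic residues, stored in dense-core vesicles and sensed by G protein-coupled receptors. In the retina most peptide precursors are made by sparse subsets of amacrine cells, and some by ganglion cells, rather than by PRs. The ciliary body and the vessels at the edges of the eye also carry peptides or their receptors.

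The sequences that give 2 of these precursors their peptides are shown first, because Penk and Npvf are the precursor genes whose levels varied most with age after induction. The coding sequence of Penk, proenkephalin, read from GENCODE M21 on GRCm38, is 804 bases long and encodes 6 copies of Met-enkephalin (5 distinct sequences) and 1 of Leu-enkephalin. The lines below run 5′ to 3′, with the enkephalin codons in capitals and 2 flanking codons on each side in lower case.
Penk copy from base 298: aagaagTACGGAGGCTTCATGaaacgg
Penk copy from base 319: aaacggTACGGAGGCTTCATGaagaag
Penk copy from base 406: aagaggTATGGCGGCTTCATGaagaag
Penk copy from base 559: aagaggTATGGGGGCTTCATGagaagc
Penk copy from base 631: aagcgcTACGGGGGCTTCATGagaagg
Penk copy from base 691 (Leu-enkephalin): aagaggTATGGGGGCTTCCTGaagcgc
Penk copy from base 784: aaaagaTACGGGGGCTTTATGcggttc
A pair of basic codons precedes all 7 copies and follows 5 of them, and the other 2 are followed by 1 basic codon only. The coding sequence of Npvf, 564 bases long, holds 2 endings of the RF-amide type, which are the parts that RF-amide receptors recognise. The codons of each ending are in capitals, followed by a glycine codon and a basic codon.
Npvf ending from base 268: gccaacCTGCCCCTGAGATTTggaagg
Npvf ending from base 361: cccagcCTGCCCCAAAGGTTTgggaga

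The libraries held 29701483 to 60145034 counts on genes, so that 3 counts correspond to 0.0473 to 0.102 CPM, a gene's counts scaled to a common library size with TMM factors. Total Otx2 counts, which do not separate the floxed from the deleted allele, were 293 to 377 CPM over the 12 mice with no call at any age (log2 fold change 0.14, 0.15 and 0.17 at P32, P34 and P38, edgeR adjusted p = 0.703, 0.684 and 0.847). The summed level of 5 rod markers was 53985 to 99717 CPM with none at 0. Markers of tissue next to the retina differed between libraries. The sum of 6 ciliary body markers was 116 to 134 CPM at P30, 56.5 to 144 at P32, 12.0 to 18.3 at P34 and 55.3 to 102 at P38. Most of this sum at P30 was 1 gene, Optc, at 73.8 to 99.0 CPM, which was 2.47 to 4.06 CPM at P34. The sum of 9 RPE markers was 496 and 577 CPM in 2 of the 3 P30 mice and 102 to 278 CPM in the other 10 libraries, P30 mouse 1 included. Xist and Y-linked genes gave 3 females at P30, 2 females and 1 male at P32, and 1 female and 2 males at both P34 and P38, so sex also moved with the groups.

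The 10 genes fell into 2 kinds by their levels. Penk, Npvf and Npsr1 were lower at P34 than in every P30 mouse, by 8.44-fold, 83.8-fold and 5.33-fold as fitted. For the other 7 genes the values of each cKO group overlapped those of P30 at all 3 ages. A gene is called here where its Benjamini-Hochberg adjusted p was at most 0.05 over the 18628 genes and its log2 fold change was at least 0.5 in size. At P34, 3 of the 10 genes were called lower, beside 123 of all genes tested (0.66 percent), and no gene was called higher. At P32 and at P38 no gene of the 10 and no gene at all was called against P30 by edgeR (0 percent). At an unadjusted p of at most 0.05 with the same fold limit 540 and 645 genes passed at these ages, and DESeq2 called 27 and 47, with Npsr1 among those at P32 and none of the 10 at P38. The genes were listed with these levels known, so the counts describe them and carry no test, and each comparison with P30 uses the same 3 control mice.

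**Figure D1:**
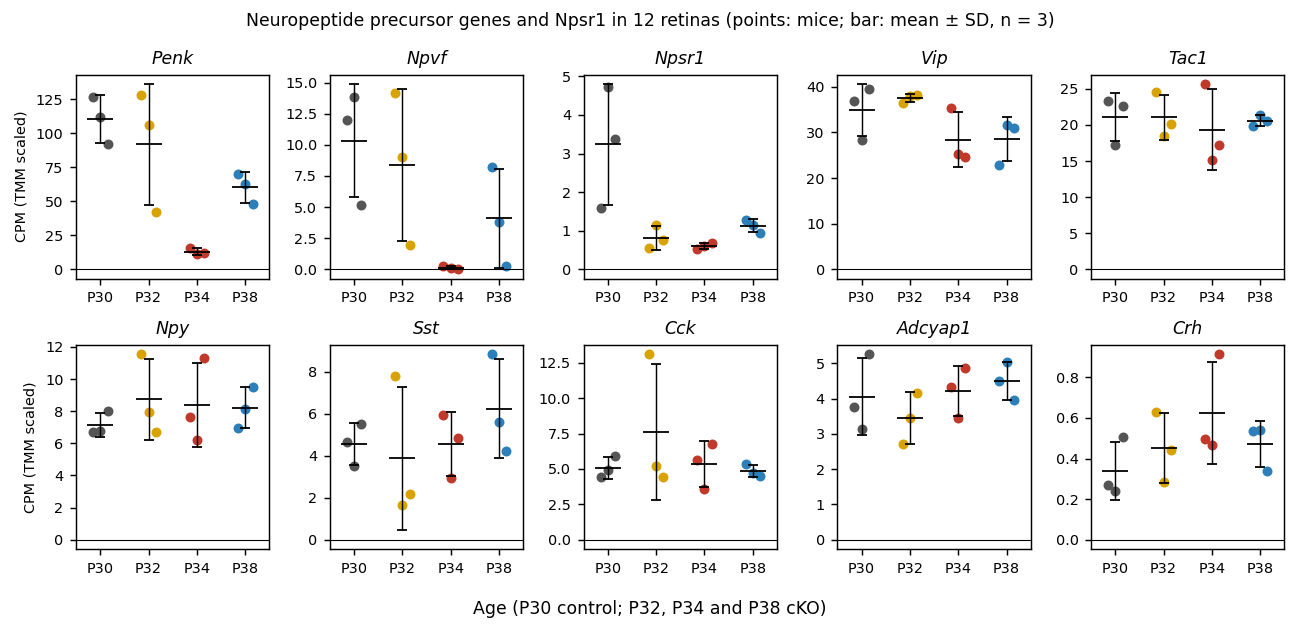
Level of each of the 10 genes in CPM (vertical axis, from 0) at P30 control and P32, P34 and P38 cKO, with 1 point per mouse and the mean with its SD (n = 3) in black. Penk was 11 to 16.0 CPM at P34 against 91.8 to 127 at P30, while the points of Vip, Tac1, Npy, Sst, Cck, Adcyap1 and Crh overlap between every cKO group and P30.

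Penk (ENSMUSG00000045573, chr4:4133531-4138819 of GRCm38, minus strand) encodes the precursor of the enkephalins, which act at opioid receptors. Its level was 127, 112 and 91.8 CPM in P30 mice 1 to 3, and 128, 106 and 42.3 CPM in P32 mice 4 to 6. It was 16.0, 11 and 12.2 CPM in P34 mice 7 to 9, and 70.2, 62.4 and 47.9 CPM in P38 mice 10 to 12. P32 overlapped P30 through mice 4 and 5, with mouse 6 below all 3 controls, whereas all 3 mice at P34 and all 3 at P38 were below every control. Means were 110 ± 17.6 CPM at P30, 91.9 ± 44.4 at P32, 13.1 ± 2.60 at P34 and 60.2 ± 11.3 at P38 (SD, n = 3). The log2 fold change against P30 was -0.26 (SE 0.32) at P32, -3.08 (SE 0.34) at P34 and -0.87 (SE 0.32) at P38. The value at P32 was -0.58 without mouse 4 and 0.08 without mouse 6, so its direction rested on 1 library. From P32 to P34 Penk changed by -2.81 (SE 0.34) on the log2 scale, and from P34 to P38 by 2.20 (SE 0.33). Both were called, beside 0.242 percent of all genes called lower from P32 to P34 and 0.199 percent called higher from P34 to P38. These last comparisons share the P34 mice with each other and with the comparison to P30. The call at P34 against P30 was kept whichever mouse was left out. The call from P32 to P34 was lost without P34 mouse 8 (-2.70) and in the fit of those 2 conditions only (-2.79), and that from P34 to P38 without mouse 7 (2.38), 8 (2.09), 9 (2.17), 10 (2.08) or 11 (2.18). RNA from whole retina cannot tell fewer cells that make a transcript from less transcript in each cell, for Penk or any other gene here.

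Npvf (ENSMUSG00000029831, chr6:50650672-50654439, minus strand) encodes the precursor of the RF-amide-related peptides, ligands of NPFFR1. Its level was 12.0, 13.9 and 5.20 CPM in the P30 mice and 14.2, 8.99 and 1.97 CPM in the P32 mice. At P34 it was 0.248, 0.0980 and 0 CPM, which are 9, 4 and 0 counts, and 0 counts in mouse 9 allow a level of up to 0.102 CPM. At P38 it was 8.22, 3.80 and 0.272 CPM, the last from 8 counts. All 3 mice at P34 were below all other mice, while P38 mice 10 and 11 reached levels of the P32 mice and P38 mouse 12 stayed close to P34. Means were 10.4 ± 4.57, 8.38 ± 6.12, 0.116 ± 0.125 and 4.10 ± 3.99 CPM at P30, P32, P34 and P38 (SD, n = 3). The log2 fold change against P30 was -0.31 (SE 0.85) at P32, -6.39 (SE 1.24) at P34 and -1.33 (SE 0.87) at P38. The value at P32 was -0.92 without mouse 4 and 0.16 without mouse 6, and that at P38 was -2.31 without mouse 10 and -0.79 without mouse 12. From P32 to P34 Npvf differed by -6.08 (SE 1.23) on the log2 scale and from P34 to P38 by 5.06 (SE 1.23). The groups did not overlap in either case, as for 13.6 and 5.36 percent of all genes tested in the same direction. With 1 mouse left out the first value was -7.15 (without P34 mouse 7) to -5.47 (without P32 mouse 4). The second was 4.08 (without P38 mouse 10) to 6.13 (without P34 mouse 7). Neither difference was called in the fit to all 12 mice. Both were called with no filter beyond 1 count (-6.08 and 5.07), by DESeq2 (-6.17 and 5.13) and without P38 mouse 12 (-6.08 and 5.60). The first was also called without P32 mouse 6 (-6.54) and with sex as a covariate (-7.34).

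The fitted size of the Npvf difference at P34 rests on the 9, 4 and 0 counts of the P34 mice. Leaving out P30 mouse 1, 2 or 3, P32 mouse 5, P34 mouse 7, 8 or 9, or P38 mouse 11 each ended the call, with log2 fold changes of -7.47 to -5.92 over all 12 mice left out in turn. With sex as a covariate the value was -8.57 at P34, still called, and -3.64 at P38. The ratio of Penk to Npvf counts was 8.07 to 21.5 in the 6 mice of P30 and P32 and 8.54 and 16.4 in P38 mice 10 and 11. It was 64.3 and 112 in P34 mice 7 and 8 and 177 in P38 mouse 12, with no Npvf count in P34 mouse 9. Npvf was thus lower relative to Penk in P34 mice 7 and 8 and in P38 mouse 12 than in the 8 mice with the smaller ratios.

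Npsr1 (ENSMUSG00000043659, chr9:24097996-24316398, plus strand) encodes the receptor for neuropeptide S, a peptide that promotes arousal in the brain. Its level was 1.59, 4.72 and 3.39 CPM in the P30 mice, with mouse 1 the lowest of the 3. The P32 mice had 0.540, 1.14 and 0.764 CPM and the P34 mice 0.525, 0.612 and 0.677 CPM. The P38 mice had 1.29, 1.15 and 0.950 CPM. In each cKO group the 3 mice were below the 3 control mice, and the 3 values at P38 were above the 3 at P34, as in 5.36 percent of all genes, Penk and Npvf among them. Means were 3.24 ± 1.57 CPM at P30, 0.814 ± 0.302 at P32, 0.605 ± 0.0765 at P34 and 1.13 ± 0.169 at P38 (SD, n = 3). The log2 fold change against P30 was -1.98 (SE 0.38) at P32, -2.41 (SE 0.40) at P34 and -1.51 (SE 0.37) at P38. At P32 it was the 1 gene of the 10 with all cKO values below all controls.

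Of all genes tested, 4.39 percent had all P32 values below all P30 values. That share was 9.67 percent at P34, where Npvf, Npsr1 and Penk did so, and 7.96 percent at P38, where Npsr1 and Penk did. At P32 Npsr1 was called without P30 mouse 1 (log2 fold change -2.31), and, with all mice kept, with no filter beyond 1 count (-1.97) and by DESeq2 (-1.97). The call at P34 was lost without P30 mouse 2 (-2.03) or 3 (-2.39), without P34 mouse 7 (-2.33), 8 (-2.42) or 9 (-2.51), and with sex as a covariate (-2.27). The gene for its ligand, Nps, named after its values were seen, had 0 to 2 counts in every library. Npsr1 is thus counted in retinas where the neuropeptide S transcript was at or under the floor of 3 counts.

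**Figure D2:**
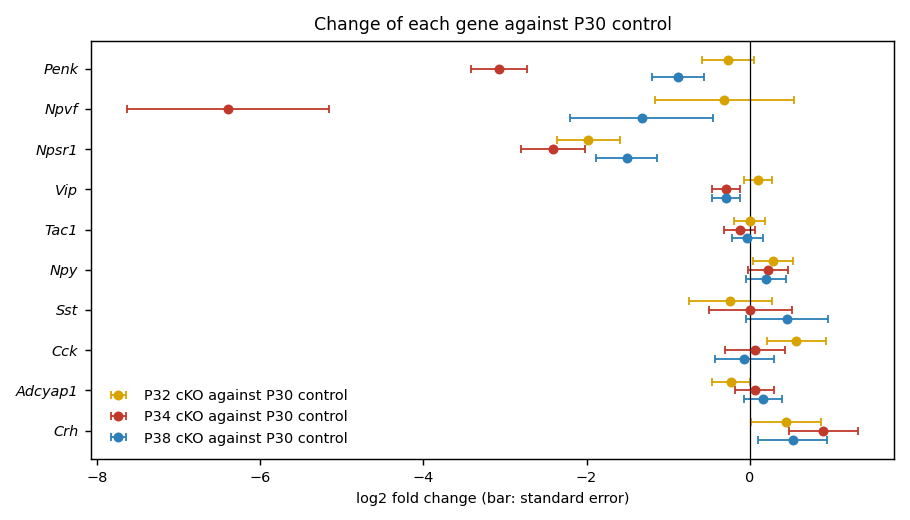
Log2 fold change against P30 control (horizontal axis) of each gene at P32, P34 and P38 cKO, with its standard error as a bar, from a fit to all 12 mice. Npvf (-6.39), Penk (-3.08) and Npsr1 (-2.41) lie far to the left at P34, and Npsr1 also at P32 (-1.98) and P38 (-1.51).

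Vip, Tac1 and Npy mark amacrine cell subsets, and each had overlapping values between every cKO group and P30. Vip encodes vasoactive intestinal peptide. It was 28.4 to 39.4 CPM at P30, 36.5 to 38.2 at P32, 24.6 to 35.3 at P34 and 22.9 to 31.6 at P38. All P34 values of Vip were below all P32 values, which held for 13.6 percent of genes tested, also for Penk and Npvf, and the log2 difference was -0.40 (SE 0.17), not called. Tac1 encodes substance P and neurokinin A and was 17.3 to 23.3 CPM at P30, 18.5 to 24.5 at P32, 15.2 to 25.7 at P34 and 19.9 to 21.4 at P38. Its log2 fold changes against P30 ranged from -0.12 to -0.00 with an SE of 0.19, and the largest of the 3 in size was smaller than that of each of the other 9 genes. Npy, which encodes neuropeptide Y, was 6.72 to 7.99 CPM at P30, 6.73 to 11.6 at P32, 6.22 to 11.3 at P34 and 6.96 to 9.50 at P38. Its log2 fold changes were 0.29, 0.23 and 0.20 (SE 0.24 each).

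Sst and Cck had widely spread values among the P32 mice. Sst, the gene of somatostatin, was 4.65, 3.51 and 5.50 CPM at P30 and 7.80, 1.65 and 2.17 CPM at P32. The P34 mice had 5.94, 2.94 and 4.84 CPM, the P38 mice 8.83, 5.61 and 4.24 CPM. The highest and lowest of the 12 values differed 5.34-fold, and P32 alone held both the lowest value and one of the 2 highest. The log2 fold change of Sst at P32 was -0.24 (SE 0.51) and without P32 mouse 4 it was -1.25, with no call in either case. Cck, the cholecystokinin gene, was 4.43 to 5.94 CPM at P30, 3.55 to 6.77 at P34 and 4.51 to 5.36 at P38. At P32 it was 13.1 CPM in mouse 4 against 5.22 and 4.41 in mice 5 and 6. Its log2 fold change at P32 was 0.57 (SE 0.36) with mouse 4 and -0.08 without it. The same mouse also had the highest Npy level of the 12. Its library had the highest share of reads without a unique alignment, 32.15 percent. Of the genes in the other lists, picked after their values were seen, Pcsk1n (92.5 CPM) was highest and Ptprn2 (21.1 CPM) lowest in this library. Whether the library bears on its Cck, Sst and Npy levels was not tested.

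Adcyap1 and Crh had the lowest levels per kb of exon of the 9 precursor genes at P30. Adcyap1 encodes PACAP, the peptide that certain ganglion cells send to the brain along with the light signal. It was 3.13 to 5.26 CPM at P30, 2.70 to 4.17 at P32, 3.45 to 4.87 at P34 and 3.97 to 5.04 at P38, with log2 fold changes of -0.23, 0.06 and 0.16 (SE 0.24, 0.24 and 0.23). Crh, the gene of corticotropin-releasing hormone, was 0.242 to 0.914 CPM over the 12 mice, from 10 to 27 counts each. Its log2 fold changes were 0.45 (SE 0.43), 0.90 (SE 0.42) and 0.53 (SE 0.43), and the values of every cKO group overlapped those of P30.

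Divided by the length of their exons, the genes covered a wide range of levels, and Npvf moved through more places in their order than the other 9. At P30 Penk led at 67.5 CPM per kb, apart from all others. Npvf (12.8) and Npy (12.6) followed and overlapped, then Vip (10.3), then Sst (6.32) and Tac1 (6.20), which overlapped, and Cck (3.90). This order is one of means, and the P30 values of Npvf (SD 5.62) also overlapped those of Vip, Sst and Tac1. Adcyap1 (1.07) and Npsr1 (0.820) overlapped, and Crh was lowest at 0.256 CPM per kb. At P34 Npy led at 14.8 CPM per kb, apart from Vip (8.35) and Penk (8.00), which overlapped each other, and Npsr1 (0.153) and Npvf (0.142) were last and overlapped. At P38 Penk was first again at 36.8 CPM per kb, apart from Npy (14.5), and Npvf stood at 5.05 between Tac1 (6.06) and Cck (3.72), overlapping both.

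The receptors of these peptides and the CRH binding protein formed a list of 25 genes, of which 22 passed the filter. In this list 1 gene, Crhbp, was called lower at P34, none was called at P32 or P38 by edgeR or DESeq2 (2 and 1 passed an unadjusted p of 0.05 and the fold limit), and the median log2 fold changes were -0.04, 0.12 and 0.13 at the 3 ages. Over all genes tested the medians were -0.01, -0.00 and -0.01. The receptors for NPVF and for the enkephalins were low or near the floor of 3 counts. Npffr1, the NPVF receptor, was 0.222 to 0.609 CPM and Npffr2 had at most 1 count in any library. Among the opioid receptors Oprm1 (mu) was 0.233 to 1.05 CPM, Oprk1 (kappa) 0.0970 to 0.375 CPM and Oprd1 (delta) 0 to 0.248 CPM. At P34 the log2 fold change was 0.45 for Npffr1 (edgeR adjusted p = 0.748), 0.61 for Oprm1 (adjusted p = 0.603) and 0.15 for Oprk1 (adjusted p = 0.955), while Oprd1 and Npffr2 did not pass the filter.

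Crhbp (ENSMUSG00000021680, chr13:95431371-95444924, minus strand) encodes a secreted protein that binds CRH and urocortin and keeps them from their receptors. Its level was 34.6, 32.7 and 22.8 CPM at P30 and 29.9, 23.2 and 12.8 CPM at P32. The P34 mice had 4.83, 3.26 and 3.22 CPM, the P38 mice 27.2, 17.4 and 14.5 CPM. All P34 mice were below all other mice, and P32 and P38 overlapped P30. Crhbp fell by 2.99 on the log2 scale at P34 against P30 (SE 0.34, edgeR quasi-likelihood adjusted p = 0.00151), while the values at P32 (-0.45, SE 0.31, adjusted p = 0.698) and P38 (-0.61, SE 0.31, adjusted p = 0.847) were not called. Between P32 and P34 it fell as well (-2.54, SE 0.34, adjusted p = 0.00641) and it rose from P34 to P38 (2.39, SE 0.33, adjusted p = 0.0123). The first of these 3 calls was kept whichever mouse was left out. The second was lost without P34 mouse 8 (-2.44) or 9 (-2.46) and in the fit of those 2 conditions only (-2.52), and the third without mouse 7 (2.61), 8 (2.29), 9 (2.30) or 10 (2.08). The log2 fold change at P34 was 0.90 for Crh itself and 0.27 for the CRH receptor Crhr1, named after its values were seen (8.71 to 13.1 CPM, edgeR adjusted p = 0.543), and no difference between the genes was tested. Crhbp counts were 22.0 to 38.8 percent of Penk counts in each of the 12 mice, with 26.3 to 30.2 percent at P34. The list that holds Crhbp was chosen with earlier results of these data known, so its adjusted p are no independent test.

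The genes that cut, package and degrade peptides formed a list of 24, all of which passed the filter. None was called by edgeR or DESeq2 at P32, P34 or P38, with 1, 3 and 1 past an unadjusted p of 0.05 and the fold limit, and the medians of the list were -0.06, 0.13 and 0.10 on the log2 scale. The convertases Pcsk1 (11.7 to 29.6 CPM) and Pcsk2 (51.9 to 89.8 CPM), which cut precursors at basic pairs, had log2 fold changes of 0.35 (adjusted p = 0.587) and 0.34 (adjusted p = 0.394) at P34. The carboxypeptidase Cpe, which trims the basic residues left behind, was 989 to 1653 CPM. These 3 genes and Mme were named after their values were seen. Mme, the gene of neprilysin, an enzyme that degrades enkephalins, was 1.91 to 2.93 CPM at P34 and 5.80 to 22.9 CPM at P30. Its log2 fold change at P34 was -2.71 (adjusted p = 0.320), with a wide spread that also placed P32 mouse 6 (2.71 CPM) and P38 mouse 12 (3.29 CPM) beside the P34 mice. Dpp4, another peptidase gene named after its values were seen, had the lowest log2 fold change of the list at P32 (-1.55) and P38 (-1.41). It was not called here, while the study's own DESeq2 list has it as lower at P34 and P38.

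The other neuropeptide precursors formed a list of 40 genes, of which 18 passed the filter and 14 had at most 3 counts in every library. None of the 18 was called by edgeR or DESeq2 at any age, with 0, 2 and 3 past an unadjusted p of 0.05 and the fold limit, and their medians were 0.21, -0.38 and -0.18 on the log2 scale at P32, P34 and P38. Of the other precursors of the opioid family, named after their values were seen, Pdyn, prodynorphin, was at 9.07 to 16.3 CPM (log2 fold change -0.42 at P34, adjusted p = 0.544) and Pomc at 3.60 to 9.93 CPM (0.01, adjusted p = 0.995). Pnoc, the nociceptin precursor, was at 0.0735 to 0.475 CPM, with a log2 fold change of -0.43 at P34 (edgeR adjusted p = 0.841) and 0.997 at P38 (edgeR adjusted p = 0.847). Their values at P34 were not past the limits that Penk passed, and the difference between these genes was not tested.

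**Figure D3:**
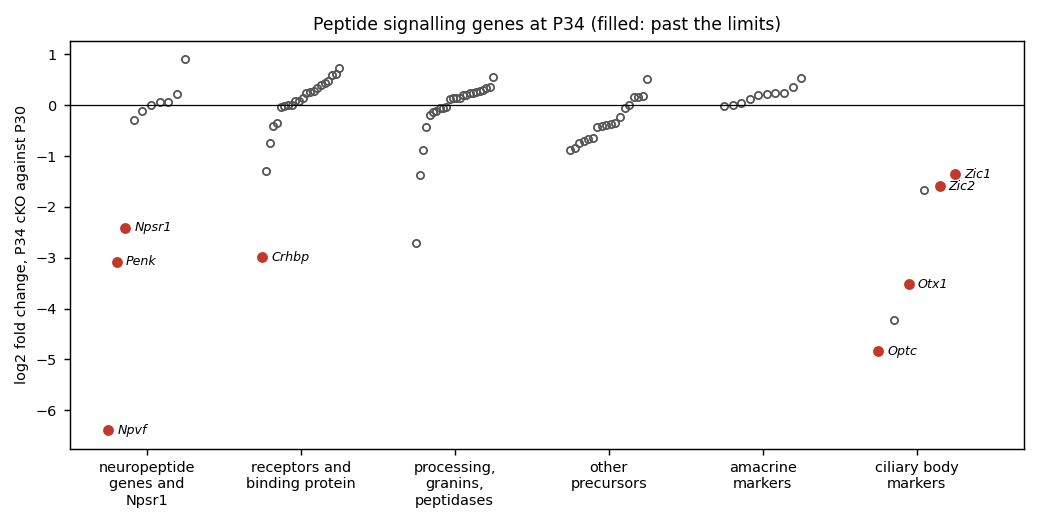
Log2 fold change at P34 cKO against P30 control (vertical axis) of each gene that passed the filter, in 4 peptide gene lists and 2 marker lists; filled red points passed the limits. Penk, Npvf and Npsr1 are filled among the 10 genes, Crhbp alone is filled among 22 receptor and binding protein genes, 0 of 10 amacrine markers and 4 of 6 ciliary body markers are. The lists were chosen with earlier results of these data known.

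Markers of the cell types that could hold these transcripts were summed beside them. The sum of 10 amacrine cell markers was 1371 to 1441 CPM at P30 and 1442 to 1902 CPM at P34, and that of 9 retinal ganglion cell markers 770 to 1118 and 1058 to 1498 CPM. None of these 19 genes was called at any age and none was at 0, with 2 of 10 amacrine and 0 of 9 ganglion cell markers at a negative log2 fold change at P34. These are broad markers and do not measure the sparse cells that make 1 peptide. All marker lists were chosen with earlier results of these libraries known, so a shared fall of a list is a description and no test. Among the ciliary body markers, all but Msx1 are also in the study's own list of genes lower at P34. The 6 ciliary body markers (Optc, Otx1, Zic1, Zic2, Msx1, Wfdc1) all had negative log2 fold changes at P34 with a median of -2.59. Of these Optc, Otx1, Zic1 and Zic2 were called lower, and none was at 0 counts in all mice of a group. Optc, which encodes opticin, a proteoglycan of the vitreous, was 73.8 to 99.0 CPM at P30 and 2.47 to 4.06 CPM at P34 (log2 fold change -4.84, SE 0.42, adjusted p = 0.000423). It was 37.7 CPM in P32 mouse 6 against 79.3 and 113 in the other P32 mice. The sum of these markers thus moved in the same direction as Penk, Npvf and Crhbp at P34, in P32 mouse 6 and in P38 mouse 12. Sums of other tissues were low in the same libraries: P32 mouse 6 had the lowest RPE (102 CPM), smooth muscle (11 CPM) and lens (502 CPM) sums of the P32 mice, and P38 mouse 12 the lowest RPE (128 CPM) and smooth muscle (16.7 CPM) sums of the P38 mice. The part of these sums in the levels of Penk, Npvf and Crhbp was not tested.

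The RPE and smooth muscle sums are also given beside Npsr1. The RPE sum was 177, 496 and 577 CPM in P30 mice 1, 2 and 3, with 2 of 9 genes, Tyrp1 and Mlana, called lower at P34. The list was not uniform. Among its pigment genes Pmel was 25.1, 258 and 202 CPM in those mice and Tyrp1 19.7, 114 and 107 CPM, with mouse 1 lowest. Among its visual cycle genes Rpe65 was 13.2, 5.59 and 21.5 CPM and Rgr 44.3, 30.0 and 85.9 CPM, with mouse 2 lowest. At P34 the log2 fold change was -4.42 for Mlana (edgeR adjusted p = 0.0316) and 0.33 for Rpe65 (edgeR adjusted p = 0.849). The sum of 6 smooth muscle markers was 29.5, 181 and 198 CPM in the same mice, then 11 to 48.7 at P32, 9.33 to 13.9 at P34 and 16.7 to 22.7 at P38, and 4 of the 5 genes tested were called lower at P34. P30 mouse 1 was the lowest control for Npsr1, for the smooth muscle sum and for the RPE sum with its pigment genes, but not for Rpe65 and Rgr, and their part in the Npsr1 level was not tested. The sum of 7 lens markers was 367, 7370 and 26280 CPM in P30 mice 2, 1 and 3, 502 to 28065 at P32, 173 to 495 at P34 and 3786 to 9373 at P38, with 0 of 7 called.

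**Figure D4:**
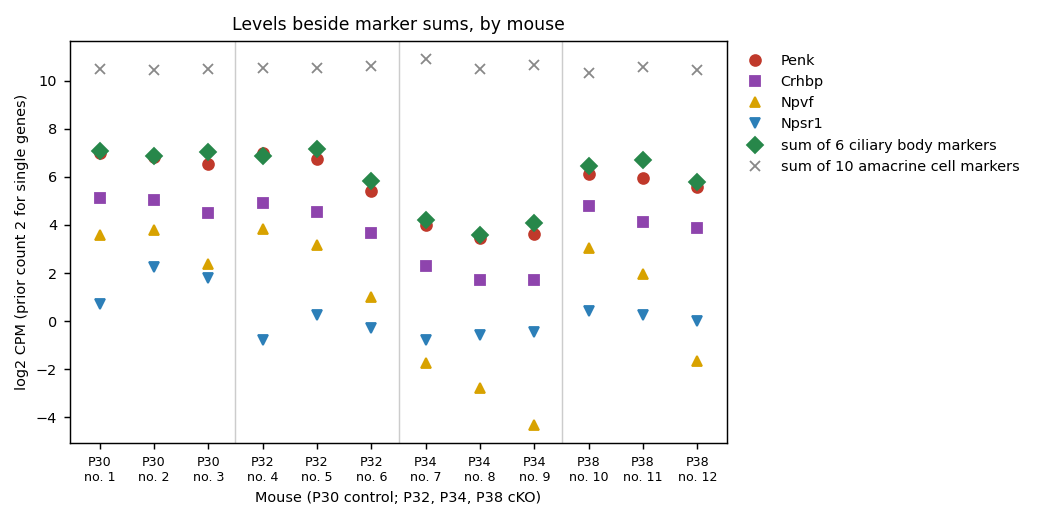
Log2 CPM (vertical axis) of Penk, Crhbp, Npvf and Npsr1 beside the summed CPM of 6 ciliary body and 10 amacrine cell markers, in each of the 12 mice. Penk, Crhbp, Npvf and the ciliary body sum are lowest in mice 7 to 9 (P34), and the amacrine sum stays between 1279 and 1902 CPM. Optc makes up most of the ciliary body sum at P30.

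Profiles over the 12 libraries were compared by correlation of log2 CPM. These are descriptions with n = 12 that share depth, dissection and the 4 conditions, and no p is given. Among the 10 genes the closest pair was Penk and Npvf (Pearson's r = 0.94, Spearman's rho = 0.97), followed by Npy and Cck (r = 0.77, rho = 0.72). Npsr1 was less close to Penk (r = 0.59) and Npvf (r = 0.55). With the ciliary body marker Optc the r was 0.97 for Penk, 0.91 for Npvf and 0.58 for Npsr1. Optc was the only ciliary body marker compared in this way, and it fell most of the 6 at P34 (log2 fold change -4.84). It was chosen with earlier results of these data known, so its r does not measure likeness to the tissue.

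Among all genes tested, the 5 most like Penk were Sod3 (extracellular superoxide dismutase, r = 0.988), Crhbp (0.987), Best2 (a chloride channel, 0.983), Mfap4 (a microfibril protein, 0.980) and Dio3 (a deiodinase that inactivates thyroid hormone, 0.978). The 5 most like Npvf were Blnk (a signalling adaptor, 0.959), F11r (a tight junction protein, 0.956), Agpat2 (an acyltransferase of lipid synthesis, 0.950), Pdgfrl (0.948) and Trpm5 (a cation channel, 0.947). F11r had a rho of only 0.69, and Trpm5 ranged from 0 to 0.465 CPM. The 5 most like Npsr1 were Slc4a5 (a bicarbonate transporter, 0.974), Wnt16 (a secreted Wnt ligand, 0.966), Rab27a (a GTPase of vesicle transport, 0.962), Thbs2 (a matrix glycoprotein, 0.945) and Papss2 (an enzyme that makes the sulphate donor, 0.945). The 3 sets of 5 genes had no gene in common. With a prior count of 0.5 in place of 2, Dio3 left the 5 closest to Penk and Agpat2 the 5 closest to Npvf.

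Promoters are shown for the letters that OTX2 and the cAMP-responsive factors are known to read. RefSeq promoters of 300 bases on the GRCm38 build, 250 before and 50 after the start, were matched for 8 of the 10 genes (9 promoters); Penk and Crh were not among them. The OTX2 and CRX core TAATCC, searched on both strands, occurred in 0 of the 9 promoters and in 7.06 percent of the 32851 promoters of the table. The 8-letter cAMP response element TGACGTCA occurred in 1 of the 9, that of Sst, and in 1.79 percent of all. Its shorter form TGACG, which overlaps the full element, occurred in 7 of the 9 promoters, of 6 genes (Adcyap1, Cck, Npsr1, Sst, Tac1 and Vip), and in 20.8 percent of all promoters. Starts here are those of RefSeq, which differ from GENCODE for some genes. By the GENCODE bounds the printed windows of Sst, Tac1 and Npsr1 lie inside the gene, and those of Vip, Cck and Adcyap1 before it. The element letters are in capitals below, as TGACG or its reverse complement CGTCA, in windows of 29 bases on the strand of the gene.
Sst, chr16:23890876-23890904, minus strand: cgcctccttggcTGACGTCAgagagagag
Vip, chr10:5639127-5639155, plus strand: ggatcactactgTGACGtctttcggggag
Tac1, chr6:7555006-7555034, plus strand: gctctacaggctCGTCAcgcctgagataa
Cck, chr9:121495725-121495753, minus strand: cctgctggactgCGTCAgcactgggtaaa
Adcyap1, chr17:93198914-93198942, plus strand: ggactaggatgcTGACGtcttttactgat
Npsr1, chr9:24097997-24098025, plus strand: gatcttccttgtCGTCAggcagaactctt
Of the genes with this element 1, Npsr1, was called at P34 and the other 5 were not. The promoters of Npvf and Npy held neither TAATCC nor TGACG in these windows. A match or its absence describes the letters of these windows and does not measure binding.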

How the data were processed

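Poly(A) RNA of whole retinas, 1 library per mouse, was sequenced as 50 bp single reads after a stranded kit. Per the labels and methods, the authors aligned reads with STAR 2.5.3a to mm10 and counted reads per Ensembl 93 gene with HTSeq 0.6.1p1; the authors deposited raw counts per gene for each mouse, and how strand was set in counting is not given in the sources used here. Gene names came from GENCODE M21 for 54079 of 54146 genes. Counts were fitted in edgeR 4.0.16 (R 4.3.3) with TMM scaling, filterByExpr and the quasi-likelihood test, with 1 mean for each of the 4 conditions over all 12 mice. A gene was called at adjusted p (Benjamini-Hochberg, 18628 genes) up to 0.05 with a log2 change, up or down, of 0.5 or more. CPM are TMM scaled. Log2 CPM for likeness used a prior count of 2. The fit was tested on simulated data.

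The 10 genes, the gene lists and the markers were chosen with earlier results of these data known, so levels and fold changes of the 10 genes are given without p. Genes outside the 10 were named when called in any of 5 comparisons, as cognate receptors of a called gene, as the 5 closest profiles of a called gene, as the targeted gene, or as markers; others are said to be chosen after their values were seen. Alternatives were DESeq2 1.42.0 as test and its size factors as scaling, no filter beyond 1 count, no limit on fold change, unadjusted p, sex as a covariate, fits of 2 conditions only, a prior count of 0.5, and leaving out each mouse. Overlapping genes may have lost reads as ambiguous, which were under 1 percent of reads in each library.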

Additional observations from a re-analysis of the deposited data

Results flagged for a closer look

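The change after induction differed between ages for Crhbp by the test of the difference itself, and Penk is given beside it as a description, because its levels in these groups put it on the list. The list that holds Crhbp was also chosen with earlier results of these data known, so its adjusted p is no independent test. Penk was lower at P34 than at P32 (log2 difference -2.81) and higher at P38 than at P34 (2.20). Crhbp was lower at P34 than at P32 (-2.54, edgeR adjusted p = 0.00641) and higher at P38 than at P34 (2.39, edgeR adjusted p = 0.0123). Both comparisons rest on the same 3 P34 mice. The first Crhbp call was lost without P34 mouse 8 (-2.44) or 9 (-2.46) and in the fit of 2 conditions (-2.52), and the second without mouse 7 (2.61), 8 (2.29), 9 (2.30) or 10 (2.08). The sum of the ciliary body markers was lowest at P34 too, and its part in these differences was not tested.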

How the results depend on the processing

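No paired analysis was possible because the mouse numbers 1 to 12 are not shared between the groups. With an unadjusted p the counts of all genes at P32, P34 and P38 against P30, at P34 against P32 and at P38 against P34 were 540, 1168, 645, 2687 and 709; with no filter beyond 1 count 23, 298, 18, 656 and 115; with DESeq2 27, 358, 47, 1406 and 147. Fits of 2 conditions only gave 229 at P34 against P30, 11 at P34 against P32 and 71 at P38 against P34, and sex as a covariate 92 at P34 against P32. Of the 10 genes, 1 was called at P32 with an unadjusted p, no filter or DESeq2 (Npsr1), and 2 at P38 with an unadjusted p. At P34 against P32 it was 2 with an unadjusted p, no filter, sex as a covariate or DESeq2, and 0 in the fit of 2 conditions. At P38 against P34 it was 3 with an unadjusted p and 2 with no filter or DESeq2. With an unadjusted p 2, 2 and 1 receptors or binding proteins, 1, 3 and 1 processing genes and, at P34 and P38, 2 and 3 other precursors were called, and the fit of 2 conditions called 1 processing gene at P34. Leaving out 1 mouse gave 0 to 19, 43 to 213, 0 to 13, 14 to 2726 and 8 to 58 genes in the 5 comparisons, the 2726 without P32 mouse 6, and 0 to 1, 1 to 3, 0 to 0, 0 to 2 and 0 to 2 of the 10; the processing list gave 0 to 1 at P34. The cause was not tested. Sex as a covariate moved Sst to -0.52 at P34 and -0.18 at P38, and Penk to -3.39 and -1.21; in the fit of 2 conditions Penk and Crhbp lost their calls at P34 against P32. No called value of the 10 genes or Crhbp changed sign under any alternative. The lowest counts were those of Npvf at P34 (0 to 9) and Crh (10 to 27), and the share of counting error in their spread was not tested.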
